A study of Homo sapiens with 9 samples.

Results

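The genes described here are 45 genes of the TGF-beta and BMP pathway, chosen by name as ligands, receptors, SMADs, latent binding proteins with a processing protease, antagonists or repressors, and ID target genes. All 45 were found among the 58676 genes of the count table. Of these, 41 had at least 10 counts in at least 3 libraries, and the same 41 were among the 15975 genes with enough counts to be tested. BMP2, BMP6, BMP7 and GREM1 did not reach that level and were not tested.

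The study asked what loss of MPZL3, an immunoglobulin domain transmembrane protein, does to ovarian cancer cells. RNA was sequenced from OVCA433, an established cell line of ovarian serous adenocarcinoma. Cells received lentivirus with a control vector, with MPZL3 shRNA hairpin #1 or with MPZL3 shRNA hairpin #3, and each group had 3 libraries marked A, B and C. According to the methods, the pLKO.1 hairpins came from the TRC library and transduced cells were selected with puromycin. The control is called an empty vector in one place and a scramble hairpin in another. The groups are puromycin-selected populations of a single cell line, and each is a model of shRNA knockdown rather than of gene deletion.

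TGF-beta family ligands bind pairs of type I and type II serine/threonine kinase receptors, which phosphorylate receptor SMADs that enter the nucleus with SMAD4. TGF-beta itself is secreted in a latent complex, tethered to the matrix by latent TGF-beta binding proteins, while activins and BMPs are held back by soluble antagonists such as follistatin and noggin. In epithelial cells the pathway is known for growth arrest and for epithelial-mesenchymal transition, and the ID genes are classic targets of the BMP branch.

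Library totals ranged from 16850854 to 23890191 counts. MPZL3 averaged 19.5 CPM (counts scaled to library size) in the control libraries, 1.89 with hairpin #1 and 1.57 with hairpin #3. The pooled log2 fold change of MPZL3 was -3.49 ± 0.19 (approximate SE, 6 knockdown against 3 control libraries). The epithelial keratins, EPCAM, CDH1 and PAX8 were present in control cells, and WT1, another serous marker, was at 0 in all libraries. In the pooled comparison EPCAM, KRT8, KRT18, KRT19, CDH1 and MUC16 fell and PAX8 rose. CDH1 went from a mean of 275 CPM in control to 0.13 CPM in knockdown libraries, EPCAM from 403 to 7.21 and MUC16 from 3.18 to 0. KRT19 went from 1550 to 109.5 CPM, KRT18 from 2175 to 820 and KRT8 from 4816 to 2131. KRT7, at 3430 and 2479 CPM, was not called, and PAX8 went from 97.0 to 204 CPM. The summed level of 9 serous epithelial markers was 11410 to 14240 CPM in control libraries, 5336 to 6812 with hairpin #1 and 5251 to 5875 with hairpin #3. The summed level of 7 fibroblast markers was 2.29 to 2.96 CPM in control libraries, 13.8 to 24.3 with hairpin #1 and 18.0 to 23.7 with hairpin #3. PDGFRB, LUM and COL3A1 were called higher in the pooled comparison, and DCN was at 0 throughout. LUM was not called with hairpin #3, and COL3A1 averaged only 0.676 CPM in knockdown libraries. FAP went the other way, from 0.55 to 0.24 CPM. PDGFRA (0.0159 to 0.244 CPM), THY1 (0.0325 to 0.239 CPM) and FAP had too few counts to be tested. Summed mesothelial markers, mostly UPK3B in control cells, were 55.1 to 76.2 CPM in control libraries, 10.7 to 32.1 with hairpin #1 and 20.1 to 37.1 with hairpin #3. UPK3B fell with each hairpin, whereas LRRN4 of the same list was called higher with hairpin #3 (10.4 to 25.1 CPM, log2 fold change 1.26 ± 0.43). The summed level of 5 endothelial markers was 0.498 to 0.669 CPM in control libraries, 1.54 to 4.25 with hairpin #1 and 3.29 to 5.89 with hairpin #3, with EMCN at 0 throughout and CDH5 called higher in the pooled comparison (0.0971 to 3.00 CPM, log2 fold change 4.86 ± 0.60). Leukocyte markers reached at most 1.35 CPM in sum. The part of these marker shifts in the values below was not tested. In bulk RNA, a change in the share of cells and a change in RNA per cell cannot be told apart.

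CPM values were scaled by TMM factors. A gene is called, and is said to have risen or fallen, where the adjusted p-value of edgeR's quasi-likelihood test was below 0.05 and the log2 fold change was at least 1 in size. Errors on log2 fold changes are approximate standard errors (SE), the size of the fold change divided by the square root of the test's F statistic. For INHBB, near 0 counts with each hairpin, they are narrower than the counting intervals given below. The pooled comparison set 6 knockdown libraries against 3 control libraries, and each hairpin was also compared with the control and with the other hairpin. The 2 hairpin comparisons share the same control libraries.

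In the pooled comparison 9 members rose and 4 fell, where 7.26% of all tested genes rose and 7.4% fell. INHBA, TGFBR3, SMAD6, SMAD7, LTBP2, LTBP4, FSTL1, FSTL3 and ID3 rose. INHBB, GDF15, LTBP1 and ID4 fell. With hairpin #1, 8 members rose and 5 fell, against 7.76% and 8.55% of all tested genes. With hairpin #3, 11 members rose and 3 fell, against 7.46% and 7.83%. Between the hairpins, 3 members were higher and 2 lower with hairpin #3, against 2.22% and 1.72% of all tested genes. In all, 17 of the 41 tested members (41.5%) were called in at least 1 of these comparisons, against 20.1% of all tested genes. Many of the others had small positive values. The pooled log2 fold change was positive for 33 of the 41 tested members with a median of 0.43, whereas 50.5% of all tested genes were positive with a median of 0.00. The members were chosen with earlier results of these data known, so these shares are not independent evidence about the pathway.

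**Figure D1:**
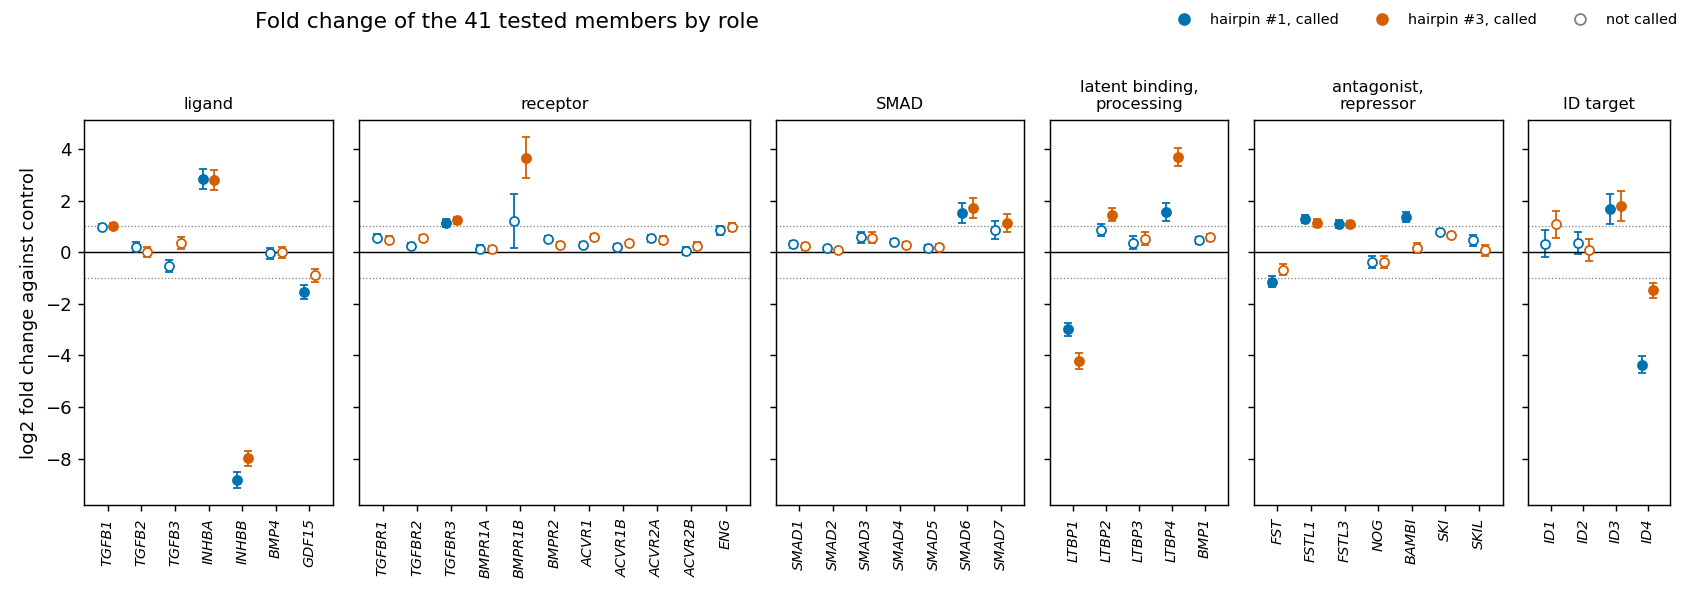
Log2 fold change against control (y axis, ± SE) of the 41 tested members, grouped by role, for hairpin #1 (blue) and hairpin #3 (orange), each from 3 libraries against the same 3 control libraries. Filled points are called, and dotted lines mark log2 fold changes of -1 and 1. Bars are approximate SE derived from the test statistic. The values and bars for INHBB and BMPR1B depend on the prior count because 1 group was near 0 counts. All 11 receptors and all 7 SMADs lie above 0 with each hairpin, while ligands, latent binding proteins and ID genes lie on either side.

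Among the ligands, the activin subunit genes exchanged places. INHBA encodes the beta A subunit of activin A. INHBA was at 8.67, 14.7 and 17.6 CPM in control replicates A, B and C, at 57.7, 138.5 and 96.0 CPM with hairpin #1 and at 52.0, 97.9 and 134.4 CPM with hairpin #3. Every knockdown library was above every control library. INHBA rose by 2.81 ± 0.37 on the log2 scale in the pooled comparison (edgeR adjusted p-value 9.50e-05), by 2.83 with hairpin #1 and by 2.79 with hairpin #3.

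INHBB encodes the beta B subunit, which forms activin B. INHBB was at 26.4, 21.9 and 23.4 CPM in control replicates A, B and C. With hairpin #1 its libraries held 2, 0 and 1 counts, and with hairpin #3 they held 1, 2 and 2 counts, against 545, 439 and 489 in the control libraries. INHBB was nearly lost in all 6 knockdown libraries. Its summed CPM ratio, control to hairpin #1, was 513 with an exact 95% counting interval of 175 to 2488. The ratio of control to hairpin #3 was 272 with an interval of 116 to 839. These intervals cover counting error only. INHBB fell in the pooled comparison with an edgeR adjusted p-value of 7.17e-10. Per kilobase of gene length, INHBA made up 19.6% of the INHBA and INHBB sum in control cells, with libraries between 12.3% and 24.3%. In knockdown cells INHBA made up 99.8% of that sum with either hairpin. The sum itself was 9.26 CPM per kb in control cells, 12.9 with hairpin #1 and 12.6 with hairpin #3.

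TGFB1, the ligand best known as TGF-beta, was at 107, 121 and 134 CPM in control replicates A, B and C, at 219, 250 and 243 CPM with hairpin #1 and at 220, 233 and 269 CPM with hairpin #3. All knockdown libraries were above all control libraries. The log2 fold change was 0.99 ± 0.10 pooled, 0.98 with hairpin #1 and 1.00 with hairpin #3, so TGFB1 stood at the fold threshold and was called only with hairpin #3. That call was lost in 6 of 16 alternative settings, without control replicate A (0.92) or B (1.00), without hairpin #1 replicate A (0.99), B (1.00) or C (1.00), or without hairpin #3 replicate C (0.91), with each value just under or below the threshold. The reads carried no strand, and 6.64% of the exonic bases of TGFB1 overlap exons of HNRNPUL1.

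TGFB2 averaged 76.7, 88.1 and 77.6 CPM in control, hairpin #1 and hairpin #3 cells, and 26.6% of its exonic bases overlap the non-coding TGFB2-OT1. TGFB3 averaged 1.88, 1.30 and 2.41 CPM. Per kilobase, TGFB1 made up 70.8% of the 3 TGFB genes in control cells, 81.2% with hairpin #1 and 82.6% with hairpin #3. BMP4, the only tested BMP ligand among the 45 members, averaged 27.9, 26.9 and 27.7 CPM, with a pooled log2 fold change of -0.03.

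GDF15, a stress-induced distant relative of TGF-beta, was at 36.5, 41.5 and 59.8 CPM in control replicates A, B and C, at 9.77, 22.2 and 15.7 CPM with hairpin #1 and at 17.4, 26.1 and 30.01 CPM with hairpin #3. All knockdown libraries were below all control libraries. GDF15 fell by 1.19 ± 0.28 on the log2 scale in the pooled comparison (edgeR adjusted p-value 0.00634) and by 1.54 ± 0.27 with hairpin #1. With hairpin #3 the log2 fold change was -0.90, short of the fold threshold. Without control replicate C the pooled value was -0.95 and the pooled call was lost.

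**Figure D2:**
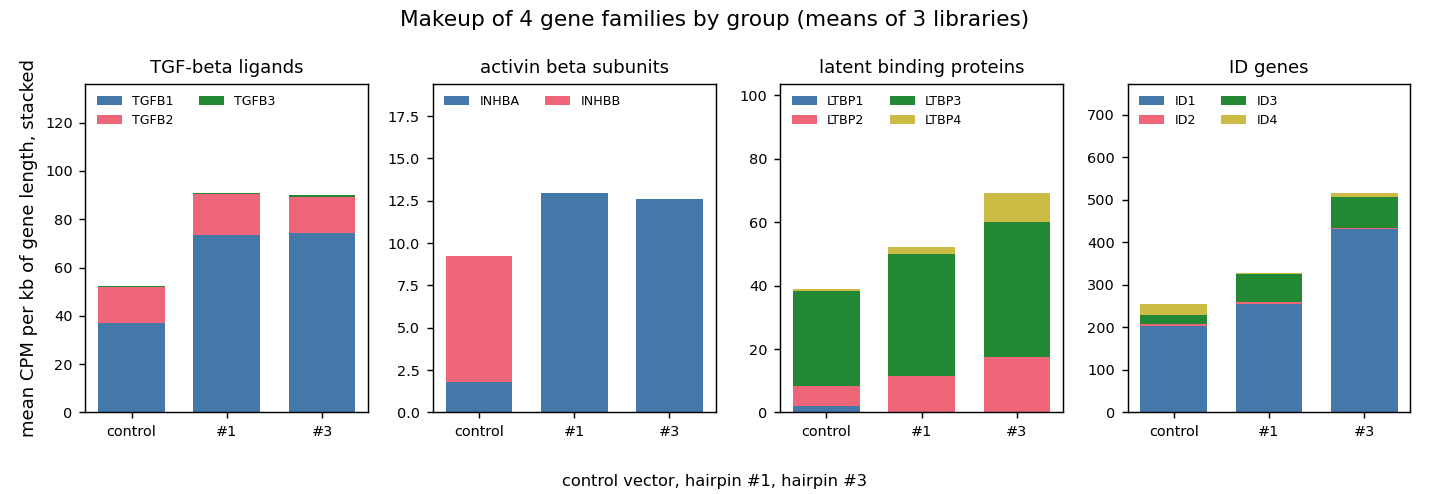
Mean CPM per kb of gene length (y axis, linear from 0, stacked) of 4 gene families in control, hairpin #1 and hairpin #3 cells, as means of 3 libraries with no error bars. INHBB fills most of the activin subunit bar in control cells and almost none of it with either hairpin, LTBP4 widens from control to hairpin #1 to hairpin #3, and ID4 narrows.

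All 11 receptors had positive log2 fold changes with each hairpin, but TGFBR3 and BMPR1B were the only ones called. TGFBR3, or betaglycan, a co-receptor that presents TGF-beta2 and inhibin, was at 8.33, 8.66 and 8.79 CPM in control replicates A, B and C, at 18.8, 19.2 and 18.5 CPM with hairpin #1 and at 25.5, 18.1 and 16.9 CPM with hairpin #3. The groups did not overlap between control and knockdown. TGFBR3 rose by 1.18 ± 0.14 on the log2 scale in the pooled comparison (edgeR adjusted p-value 4.98e-05), and it was called with each hairpin and under all 16 alternatives of each of these comparisons.

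BMPR1B, a type I BMP receptor, was scarce. Its control libraries held 0, 0 and 4 counts, its hairpin #1 libraries 3, 6 and 1 counts and its hairpin #3 libraries 12, 15 and 24 counts. All hairpin #3 libraries were above all other libraries. The summed CPM ratio of hairpin #3 to control was 13.8 with an exact 95% counting interval of 5.08 to 52.6, and the ratio of hairpin #3 to hairpin #1 was 5.77 with an interval of 2.89 to 12.7. BMPR1B was called higher with hairpin #3 than in control cells (edgeR adjusted p-value 0.00283) and than with hairpin #1 (edgeR adjusted p-value 0.0326). The latter call was lost without hairpin #1 replicate A (adjusted p-value 0.0738) or C (0.13), or without hairpin #3 replicate B (0.0889) or C (0.114). The 50 nearest tested genes on chromosome 4 that averaged at least 10 CPM had a median log2 difference of 0.39 between hairpin #3 and hairpin #1. The part of this in the BMPR1B value was not tested.

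No other receptor was called. In the pooled comparison 6 of them had an edgeR adjusted p-value below 0.05 and missed only the fold threshold. They were ENG, TGFBR1, TGFBR2, BMPR2, ACVR1 and ACVR2A. ENG, or endoglin, a co-receptor abundant in endothelium, averaged 177, 317 and 346 CPM in control, hairpin #1 and hairpin #3 cells, a pooled log2 fold change of 0.91 ± 0.16 that stayed below the fold threshold. TGFBR2, the type II receptor for TGF-beta, averaged 112, 132 and 163 CPM, and its partner TGFBR1 averaged 32.1, 47.4 and 44.9 CPM. The pooled log2 fold changes of BMPR1A, BMPR2, ACVR1, ACVR1B, ACVR2A and ACVR2B lay between 0.12 and 0.51. Over the 11 receptors the median was 0.43.

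Of the 7 SMADs among the members, the inhibitory SMAD6 and SMAD7 were called. SMAD6, which restrains mainly BMP signalling, was at 8.09, 15.6 and 23.9 CPM in control replicates A, B and C, at 26.4, 63.3 and 47.3 CPM with hairpin #1 and at 28.1, 67.5 and 60.7 CPM with hairpin #3. Each knockdown library was above each control library, although the lowest knockdown values were close to the highest control value. SMAD6 rose by 1.62 ± 0.38 on the log2 scale in the pooled comparison (edgeR adjusted p-value 0.00651), by 1.52 with hairpin #1 and by 1.72 with hairpin #3, and each of these calls was kept under all 16 of its alternatives.

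SMAD7, which turns TGF-beta receptors over and is itself induced by TGF-beta, was at 12.98, 19.7 and 26.4 CPM in control replicates A, B and C, at 18.9, 51.1 and 37.4 CPM with hairpin #1 and at 23.7, 55.03 and 50.8 CPM with hairpin #3. The groups overlapped, because replicate A of each hairpin lay below control replicate C. SMAD7 rose by 1.00 ± 0.35 pooled (edgeR adjusted p-value 0.0435) and by 1.13 ± 0.36 with hairpin #3, whereas the value with hairpin #1 was 0.86 and not called. The pooled call was lost in 9 of 16 alternatives. Leaving out control replicate A gave a pooled value of 0.77 and control replicate B 1.00, hairpin #1 replicate B 0.91 and C 1.02, and hairpin #3 replicate B 0.88 and C 0.91. The adjusted p-values of these 6 fits were between 0.0569 and 0.167. With a replicate block the pooled value was 0.95, under the fold threshold, at an edgeR adjusted p-value of 0.00229. The hairpin #3 call was lost without control replicate A (0.91) or B (1.13), without hairpin #3 replicate B (0.92) or C (1.00), and by the DESeq2 Wald test (adjusted p-value 0.0603).

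The signalling SMADs among the members, SMAD1 to SMAD5, were not called. SMAD3 and SMAD4 missed only the fold threshold in the pooled comparison (edgeR adjusted p-values 0.0378 and 0.00863). SMAD2 and SMAD3 carry TGF-beta and activin signals, SMAD1 and SMAD5 carry BMP signals, and SMAD4 is their common partner. SMAD3 averaged 159, 238 and 235 CPM in control, hairpin #1 and hairpin #3 cells, with a pooled log2 fold change of 0.57. The pooled values of SMAD1, SMAD2, SMAD4 and SMAD5 were 0.26, 0.12, 0.34 and 0.18.

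Promoter sequence is shown for SMAD6, SMAD7, ID3 and ID4, the called members that are inhibitory SMADs or ID targets and therefore known targets of the pathway. The 250 bases before and 50 bases after each RefSeq start on GRCh38.p14 were searched on both strands for GTCTAGAC, the palindromic SMAD-binding element, and for CAGAC, the core of the CAGA box, which does not occur within GTCTAGAC. GTCTAGAC was present in 71 of 35116 windows of all genes (0.202%), and CAGAC in 45.3% of them. Windows were at hand for 40 members, and BMP1, BMP2, BMP7, NOG and SKI had none. GTCTAGAC was found in the window of 1 of the 40 members, SMAD6, and CAGAC in those of 23. Counted by window, as for all genes, CAGAC was in 35 of the 72 windows of members (48.6%), near the share of all windows. GGCGCC, the core of BMP-responsive elements, was also searched on both strands and was in 20 of the 72 windows of members (27.8%) and in 19.2% of all windows. It had no match in the 250 bases before a start of SMAD6, SMAD7, ID3 or ID4. Each stretch of 30 bases is given 5′ to 3′ on the strand of its gene, with the match in capitals. SMAD6 lies at chr15:66702206-66702235 on the plus strand, SMAD7 at chr18:48951076-48951105 on the minus strand, ID3 at chr1:23559631-23559660 on the minus strand and ID4 at chr6:19837153-19837182 on the plus strand.
SMAD6: ccgcggagccgccaaagtGTCTAGACtggc
SMAD7: ttcttattttgcCAGACgtctcatgcgggg
ID3: ggtcttcggcgtCAGACcagccggaggaag
ID4: ggctggccactcCAGACcccccgcccactc
The SMAD6 match began 12 bases, the SMAD7 match 128 bases, the ID3 match 147 bases and the ID4 match 205 bases before the RefSeq start. SMAD7 held 2 further CAGAC matches, 217 and 193 bases before the RefSeq starts of its windows. Matches are listed only within the 250 bases before a start, and any in the 50 bases after it are left out. The start the count table gives for SMAD6, position 66702228 of chromosome 15, falls within the SMAD6 match. The ID3 stretch falls within the span the count table gives for ID3, which ends at position 23559794 of chromosome 1. A match is a stretch of letters and was not tested as a binding site, and CAGAC was present in the windows of genes that rose (SMAD7, ID3) and of one that fell (ID4).

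**Figure D3:**
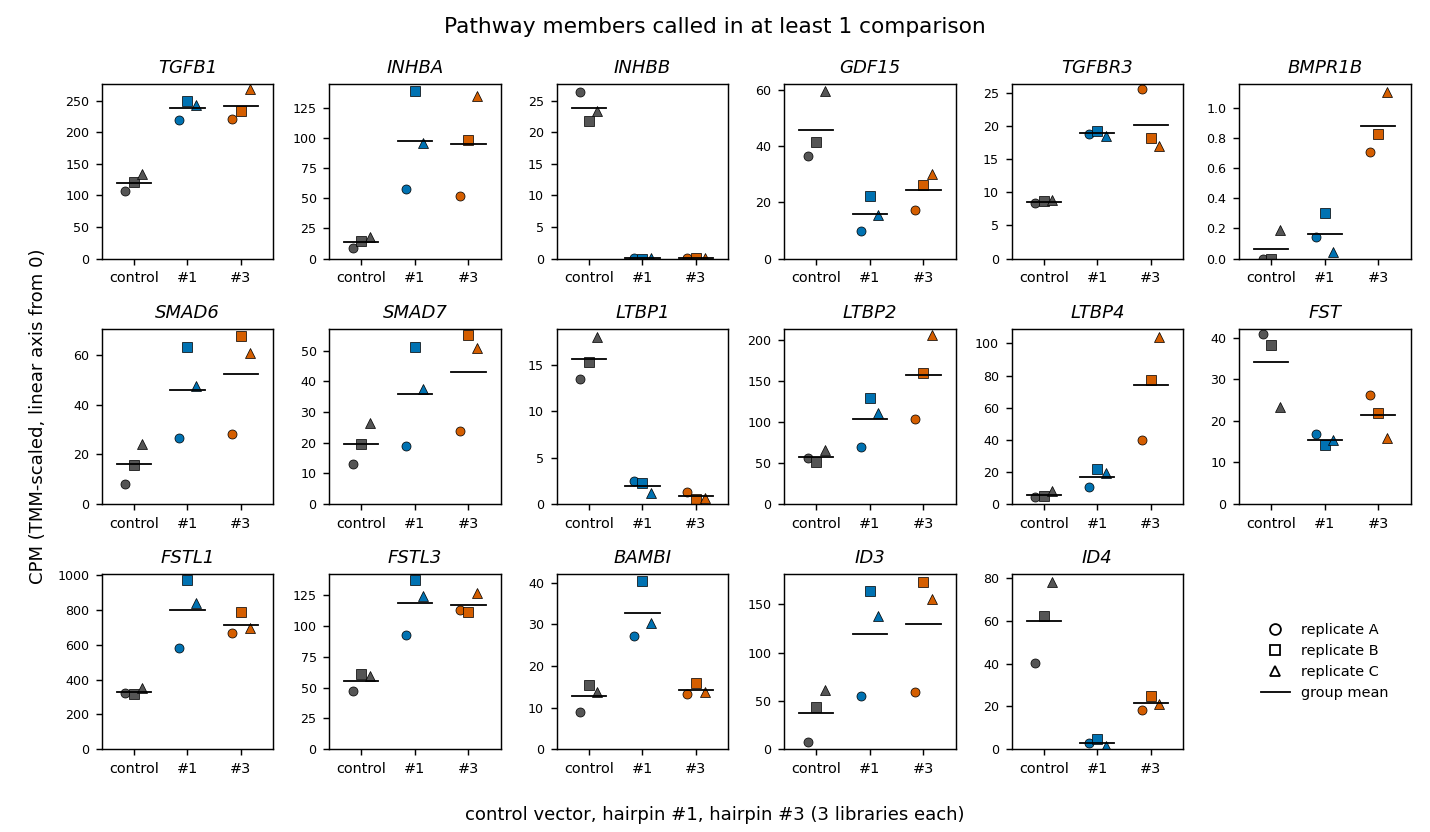
CPM per library (y axis, linear from 0, own scale for each gene) of the 17 members called in at least 1 comparison, in control, hairpin #1 and hairpin #3 cells with 3 libraries each. Marker shape gives replicate A, B or C, and the line is the group mean. INHBB, LTBP1 and ID4 drop in all knockdown libraries, whereas INHBA, SMAD6 and LTBP4 climb and replicate A of SMAD6 and ID3 sits below B and C in each group.

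The latent binding proteins moved in opposite directions. LTBP1, which tethers latent TGF-beta to fibrillin and fibronectin matrix, was at 13.6, 15.4 and 18.1 CPM in control replicates A, B and C, at 2.48, 2.24 and 1.20 CPM with hairpin #1 and at 1.29, 0.549 and 0.69 CPM with hairpin #3. All knockdown libraries were far below the control libraries. LTBP1 fell by 3.47 ± 0.35 on the log2 scale pooled (edgeR adjusted p-value 1.22e-05), by 3.00 ± 0.27 with hairpin #1 and by 4.23 ± 0.31 with hairpin #3. It was lower with hairpin #3 than with hairpin #1 by a log2 difference of -1.23 ± 0.35 (edgeR adjusted p-value 0.0355), although hairpin #3 replicate A was above hairpin #1 replicate C. This difference was not called without control replicate B (adjusted p-value 0.0527), hairpin #1 replicate A (0.0905) or B (0.117), or hairpin #3 replicate B (0.149) or C (0.127), nor in a fit of the hairpin libraries alone (0.0816).

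LTBP4, a latent binding protein of elastic fibres, went the other way. LTBP4 was at 4.46, 5.03 and 7.79 CPM in control replicates A, B and C, at 10.5, 21.6 and 19.2 CPM with hairpin #1 and at 40.1, 77.5 and 104.1 CPM with hairpin #3. The 3 groups did not overlap. LTBP4 rose by 1.56 ± 0.35 with hairpin #1 (edgeR adjusted p-value 0.00324) and by 3.68 ± 0.36 with hairpin #3 (edgeR adjusted p-value 3.12e-06). It was higher with hairpin #3 than with hairpin #1 by 2.12 ± 0.32 (edgeR adjusted p-value 0.000901), and all of these calls were kept under all 16 alternatives of each.

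LTBP2, a matrix protein of the same family that does not bind latent TGF-beta, was at 55.6, 50.7 and 66.1 CPM in control replicates A, B and C, at 69.6, 129.3 and 111 CPM with hairpin #1 and at 104, 160.5 and 206 CPM with hairpin #3. All knockdown libraries were above the control libraries, hairpin #1 replicate A only just. LTBP2 rose by 1.18 ± 0.28 pooled (edgeR adjusted p-value 0.0064) and by 1.45 ± 0.24 with hairpin #3, and its value with hairpin #1 was 0.85. Without hairpin #3 replicate C the pooled value was 1.00, just under the threshold.

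LTBP3 was the most abundant of the family per kilobase in every group and was not called, with means of 315, 406 and 450 CPM and a pooled log2 fold change of 0.44. LTBP3 made up 76.2% of the LTBP sum per kilobase in control cells, 73.6% with hairpin #1 and 62.1% with hairpin #3. LTBP4 made up 1.80%, 3.99% and 12.8%, and LTBP1 made up 5.52%, 0.58% and 0.198%. BMP1, a metalloprotease that processes procollagen and LTBP1, averaged 55.9, 77.1 and 83.6 CPM, with a pooled log2 fold change of 0.52.

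Among the antagonists, follistatin and the follistatin-like genes parted. FST, which binds and neutralises activin, was at 40.8, 38.2 and 23.2 CPM in control replicates A, B and C, at 16.7, 14.2 and 15.3 CPM with hairpin #1 and at 26.1, 21.8 and 15.9 CPM with hairpin #3. Hairpin #1 libraries were all below the control libraries, and hairpin #3 libraries overlapped them. FST fell by 1.14 ± 0.21 on the log2 scale with hairpin #1 (edgeR adjusted p-value 0.000701), and the hairpin #3 value was -0.68. Without control replicate A the hairpin #1 value was -0.99, and the call was lost.

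FSTL3, a secreted follistatin relative that also binds activin, was at 47.1, 61.1 and 59.1 CPM in control replicates A, B and C, at 92.9, 137.7 and 125 CPM with hairpin #1 and at 113, 111 and 127 CPM with hairpin #3. Control and knockdown libraries did not overlap. FSTL3 rose by 1.08 ± 0.13 pooled (edgeR adjusted p-value 6.28e-05), by 1.09 with hairpin #1 and by 1.07 with hairpin #3. Without control replicate A these values were 0.97, 0.98 and 0.96, and without hairpin #1 replicate B the hairpin #1 value was 0.96.

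FSTL1, a secreted glycoprotein with a follistatin domain, was at 322, 316 and 351 CPM in control replicates A, B and C, at 584, 973 and 839 CPM with hairpin #1 and at 666, 786 and 697 CPM with hairpin #3. All knockdown libraries were well above all control libraries. FSTL1 rose by 1.20 ± 0.15 pooled (edgeR adjusted p-value 7.19e-05), and the call was kept with each hairpin under all 16 alternatives.

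BAMBI, a pseudoreceptor that dampens TGF-beta and BMP signals, differed between the hairpins. BAMBI was at 8.91, 15.5 and 13.8 CPM in control replicates A, B and C, at 27.1, 40.5 and 30.4 CPM with hairpin #1 and at 13.3, 15.9 and 13.8 CPM with hairpin #3. Hairpin #1 libraries stood above all others, and hairpin #3 libraries lay among the control libraries or near them. BAMBI rose by 1.36 ± 0.20 with hairpin #1 (edgeR adjusted p-value 0.0001). It was lower with hairpin #3 than with hairpin #1 by a log2 difference of -1.19 ± 0.19 (edgeR adjusted p-value 0.00146), and both calls were kept under all 16 alternatives of each. The value of hairpin #3 against control was 0.17.

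NOG, or noggin, an extracellular BMP antagonist, averaged 8.64, 6.69 and 6.63 CPM in control, hairpin #1 and hairpin #3 cells and was not called. SKI, a nuclear SMAD corepressor, averaged 85.5, 147 and 134 CPM with a pooled log2 fold change of 0.72, under the fold threshold. SKIL, a close relative of SKI, averaged 134.5, 184 and 141 CPM and had a pooled value of 0.27.

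The ID genes encode dominant-negative helix-loop-helix proteins, and here they split. ID4 was at 40.2, 62.2 and 78.1 CPM in control replicates A, B and C, at 2.94, 4.63 and 1.33 CPM with hairpin #1 and at 18.5, 24.7 and 21.3 CPM with hairpin #3. The groups did not overlap, and hairpin #1 was the lowest. ID4 fell by 4.36 ± 0.34 on the log2 scale with hairpin #1 (edgeR adjusted p-value 3.16e-07) and by 1.48 ± 0.28 with hairpin #3 (edgeR adjusted p-value 0.000977). Hairpin #3 exceeded hairpin #1 by 2.88 ± 0.33 (edgeR adjusted p-value 0.000114). These 3 calls were kept under all 16 alternatives of each. The pooled value was -2.31 ± 0.66, and its call was lost without control replicate B (-2.28, adjusted p-value 0.0564) or C (-2.08, adjusted p-value 0.0754).

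ID3 was at 7.65, 44.1 and 61.0 CPM in control replicates A, B and C, at 55.3, 163 and 137.5 CPM with hairpin #1 and at 59.1, 173 and 155 CPM with hairpin #3. Replicates B and C of each hairpin were above all control libraries, while the A libraries of both hairpins fell within the control range. ID3 rose by 1.72 ± 0.57 pooled (edgeR adjusted p-value 0.0351), by 1.66 with hairpin #1 and by 1.78 with hairpin #3. The pooled call was lost without control replicate A (1.24) or B (1.85), hairpin #1 replicate B (1.63) or C (1.69), or hairpin #3 replicate B (1.60) or C (1.65), with adjusted p-values between 0.0513 and 0.0867. The hairpin #1 call was lost without control replicate A (1.18) or B (1.79) or hairpin #1 replicate B (1.36) or C (1.54), and the hairpin #3 call without control replicate B (1.91) or hairpin #3 replicate B (1.52) or C (1.63). By the DESeq2 Wald test the adjusted p-values were 0.0865 and 0.068 for hairpin #1 and hairpin #3. The pooled and single-hairpin ID3 calls were kept with a replicate block.

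ID1 was the most abundant ID gene per kilobase and was not called. ID1 was at 68.4, 296 and 391 CPM in control replicates A, B and C, at 163, 441 and 339 CPM with hairpin #1 and at 242, 698 and 651 CPM with hairpin #3. The replicates of a group differed more than the groups, and the log2 fold change was 0.32 ± 0.52 with hairpin #1 and 1.08 ± 0.53 with hairpin #3. ID2 averaged 8.40, 10.7 and 8.84 CPM.

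Replicate A was the lowest of 3 in every group for 16 of the 41 tested members (39.0%), against 16.0% of all tested genes. Replicate B was the lowest in every group for 0 members (3.13% of all tested genes) and replicate C for 3 members (7.32%, against 8.06% of all tested genes). The 16 members were TGFB1, INHBA, GDF15, ACVR1B, ENG, SMAD3, SMAD6, SMAD7, LTBP3, LTBP4, BMP1, BAMBI, SKIL, ID1, ID2 and ID3. What the letters share is not stated in the sources used here. Set against the control library of the same letter, on a log2 scale with 0.5 CPM added, ID3 with hairpin #1 was higher by 2.78 in A, 1.88 in B and 1.17 in C. With hairpin #3 the ID3 differences were 2.87, 1.96 and 1.34. SMAD6 was higher by 1.65, 1.99 and 0.97 with hairpin #1 and by 1.74, 2.08 and 1.32 with hairpin #3. SMAD7 was higher by 0.52, 1.35 and 0.49 with hairpin #1 and by 0.84, 1.46 and 0.93 with hairpin #3. Within each letter, ID3, SMAD6 and SMAD7 were thus higher in knockdown than in control cells. ID1 with hairpin #1 was higher in A (1.24) and B (0.57) and lower in C (-0.21), and with hairpin #3 it was higher in A (1.81), B (1.24) and C (0.74). ID2 changed direction with both hairpins. With hairpin #1 it was higher in A (1.31) and B (0.66) and lower in C (-0.52). With hairpin #3 the ID2 differences were 0.78, 0.48 and -0.68.

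**Figure D4:**
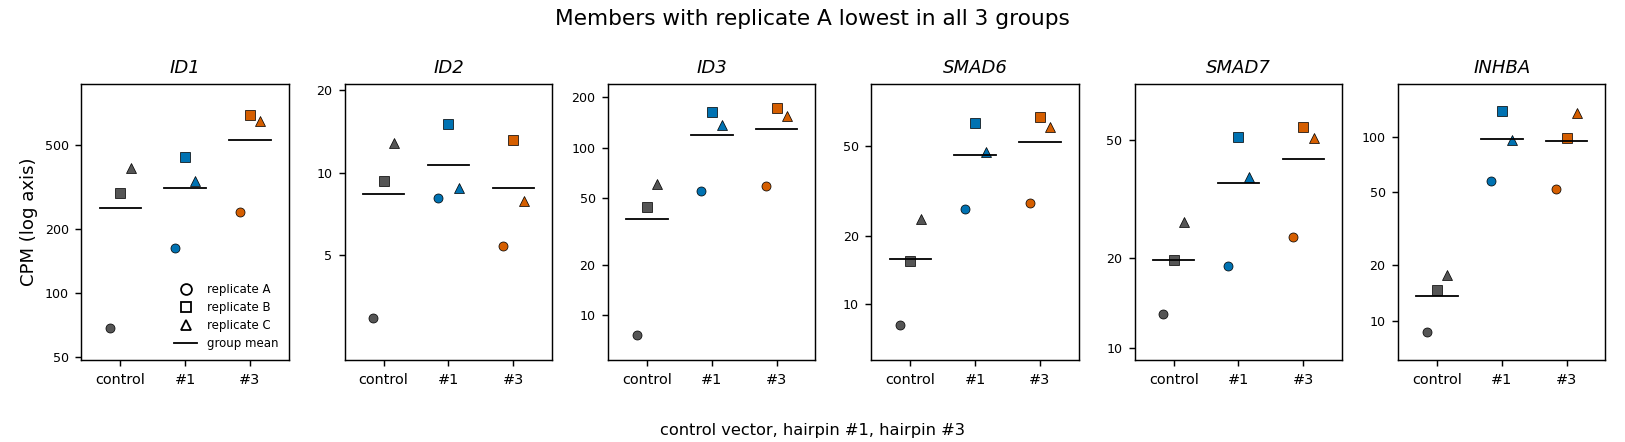
CPM per library (y axis, log scale, own range for each gene) of 6 of the 16 members whose replicate A was the lowest in every group, in control, hairpin #1 and hairpin #3 cells. Circles (replicate A) lie below squares and triangles (B and C) in each group, and lines are arithmetic group means. Control replicate A is the lowest of all 9 libraries for each of the 6 genes.

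A wider list of 122 genes of the same pathway held 86 tested genes. This list too was chosen with earlier results of these data known, so its counts are not independent evidence. In the pooled comparison 17 rose and 7 fell, where 7.26% and 7.4% of all tested genes did. With hairpin #1, 18 rose and 8 fell, where 7.76% and 8.55% of all tested genes did, and with hairpin #3, 16 rose and 7 fell, where 7.46% and 7.83% did. The counts by role that follow are from the pooled comparison and have the same background. Over the 86 genes the median pooled log2 fold change was 0.11. Of the named genes below, those that fell did so in all 6 knockdown libraries relative to all control libraries, except DLX5, and those that rose were above all control libraries in all 6.

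Among 12 tested genes of latent TGF-beta activation, 5 rose and 2 fell. ITGB6, the beta subunit of the integrin that activates latent TGF-beta1 on epithelia, fell from 92.8 to 1.56 CPM in the pooled means, a log2 fold change of -5.89 ± 0.18. FBN1, the fibrillin that anchors latent binding proteins, rose from 4.19 to 150.1 CPM, a log2 fold change of 5.16 ± 0.21. The membrane-bound and secreted matrix metalloproteases MMP14 and MMP2 rose by 2.39 ± 0.18 and 2.35 ± 0.30. The named genes of this group had edgeR adjusted p-values of 7.55e-05 or less.

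Of 8 tested further receptors and co-receptors, 3 rose and 2 fell. RGMA, a BMP co-receptor, fell by 3.31 ± 0.28 on the log2 scale, and ACVR1C, the nodal and activin receptor ALK7, fell by 2.41 ± 0.40. ACVRL1, the endothelial type I receptor ALK1, rose by 2.82 ± 0.41 from 0.212 to 1.52 CPM. NRP2, a semaphorin receptor that also binds TGF-beta, rose by 2.63 ± 0.16. Of 8 tested extracellular antagonists, 2 rose and 1 fell. KCP, a chordin-like modulator, fell by 4.08 ± 0.53 from 2.33 to 0.135 CPM, while BMPER, a BMP-binding regulator, rose by 2.09 ± 0.48.

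Among 18 tested TGF-beta and activin targets, 4 rose and 1 fell. SNAI1, a repressor of epithelial genes, rose by 3.11 ± 0.33, SPHK1, a sphingosine kinase, by 1.98 ± 0.19, and CTGF, a matricellular protein, by 1.62 ± 0.34. HMGA2, a chromatin protein, fell by 1.59 ± 0.28. Of 5 tested BMP targets, 2 rose and 1 fell. ATOH8, a helix-loop-helix factor, rose by 4.89 ± 0.67 from 0.946 to 28.4 CPM, and HEY1, a Notch and BMP target, by 1.74 ± 0.49, while DLX5, a homeobox gene, fell by 1.67 ± 0.47. SMAD9, a receptor SMAD of the BMP branch, rose by 1.45 ± 0.23 in the pooled comparison, where no other of 30 tested intracellular modulators was called, and 2 of the 30 rose with hairpin #1. None of 5 tested further ligands was called in the pooled comparison. With hairpin #1, 1 of them fell, and a different one fell with hairpin #3, both at low counts.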

How the data were processed

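The deposited values are raw read counts per gene of 9 poly(A)-selected, non-directional libraries, and per the labels each group has 3 replicates. The submitters' processing notes name HISAT2 2.0.5, featureCounts 1.5.0-p3 and hg38. The authors applied no normalization to these counts. All 9 count columns matched a sample by library name, and 0 count columns were left without a sample.

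Genes were kept with filterByExpr (minimum count 10, minimum total 15), counts were scaled by TMM factors and tested with edgeR 4.0.16 (glmQLFit and glmQLFTest, R 4.3.3) with Benjamini-Hochberg adjustment over all 15975 tested genes. The pooled comparison was fitted with 2 arms, and the hairpin comparisons with 3 groups. Calls needed an adjusted p-value below 0.05 and a log2 fold change of at least 1 in size. The fit was tested on simulated data with known fold changes. DESeq2 1.42.0, other scalings and filters, the replicate block and leaving out each library were alternatives. Values per library are given for called members, and up to 4 genes called in the pooled comparison with the largest change are named per further list. A gene that this rule selects is not reported here. The members and lists were chosen with earlier results of these data known. The study describes 3 biological replicates per condition, but nothing states how the letters relate across groups. Count depth (16850854 to 23890191 per library) limits genes near 0 counts, and intervals cover counting error only. Promoter sequences are from RefSeq (GRCh38.p14), and exon overlaps from GENCODE 29.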

Additional observations from a re-analysis of the deposited data

Results flagged for a closer look

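In the test of hairpin #3 against hairpin #1, the 5 members that differed between the hairpins were LTBP1 with a log2 difference of -1.23 (edgeR adjusted p-value 0.0355), LTBP4 with 2.12 (0.000901), BAMBI with -1.19 (0.00146), BMPR1B with 2.45 (0.0326) and ID4 with 2.88 (0.000114). The calls of LTBP1 and BMPR1B were lost when single libraries were left out, and those of LTBP4, BAMBI and ID4 were kept. Without all libraries of letter B only 1 member was called higher with hairpin #3, so LTBP4 and ID4 were not both kept there. Over all genes the calls between the hairpins then went from 628 to 275. Groups of 3 libraries were not screened for outlying samples. MPZL3 itself had a log2 difference of -0.25 ± 0.26 between the hairpins.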

How the results depend on the processing

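Of 45 calls of single members, 30 were kept under every alternative tried for single members, and no called value changed direction. Those alternatives did not include leaving out all libraries of a letter. With no fold threshold, 25 members were called pooled, 23 with hairpin #1, 25 with hairpin #3 and 43 further genes pooled, against 13, 13, 14 and 24. Of all 15975 tested genes, 5269 were called pooled at that setting, 6032 with hairpin #1 and 5536 with hairpin #3, against 2342, 2605 and 2443. Between the hairpins 5 members were called, and 3 at an adjusted p-value under 0.01. Over all genes these counts were 628 and 456. Leaving out single libraries gave 10 to 16 members pooled, 10 to 16 with hairpin #1, 12 to 16 with hairpin #3 and 3 to 5 between the hairpins, the lowest without hairpin #1 replicate A or hairpin #3 replicate B or C. Over all genes those fits called 2096 to 2490 pooled and 2462 to 2780 with hairpin #1. They called 2333 to 2590 with hairpin #3 and 515 to 711 between the hairpins. Leaving out the 3 libraries of a letter, chosen after seeing the data, gave 7 pooled and 2 between the hairpins without B, and 3 between the hairpins without C. Over all genes, 1916 were called pooled and 275 between the hairpins without B, and 398 between the hairpins without C. With all libraries these were 2342 pooled and 628 between the hairpins. Without B, 4 members were higher and 3 lower pooled, and 1 was higher and 1 lower between the hairpins. Not every call kept under all 16 alternatives was therefore kept without B. The DESeq2 Wald test called 14, 12, 12 and 5 members, and 2376, 2581, 2425 and 655 of all genes.

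With a replicate block, 12, 13, 15 and 5 members and 25 further genes were called. Over all genes the block gave 2306, 2675, 2515 and 754 calls. The pooled SMAD7 value was then 0.95, below the fold threshold, with an edgeR adjusted p-value of 0.00229 against 0.0435 without the block. The pooled ID3 call and the ID3 calls with each hairpin were kept under the block. Deviations from group means correlated at 0.0373 to 0.361 between libraries of the same letter and at -0.322 to 0.132 otherwise. Every same-letter value was positive, but not every library correlated best with its own letter. Control replicate B correlated at 0.0373 with hairpin #1 replicate B and at 0.113 with replicate C. The main fits did not take the letters as pairs, so any spread shared by a letter stayed in their error. Depth limits BMPR1B, INHBB and the members not tested.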
